A study of Homo sapiens with 12 samples.

Results

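The part of the ML210 response that differed between neuroblastoma lines was examined in all 12 libraries of the series. For each gene, the log2 fold change of ML210 over control (the response) was taken within each line label, and the response labelled SK-N-AS was subtracted from the response labelled SK-N-BE(2). This difference of responses was called for 85 of 20304 genes tested, which is 0.419% of them. It was above 0 for 48 genes (0.236%) and below 0 for 37 genes (0.182%). Above 0 means that a gene rose more, or fell less, with ML210 in the libraries labelled SK-N-BE(2).

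Messenger RNA was sequenced from 2 established human neuroblastoma cell lines, both given as wild type in genotype. Cells were cultured overnight with ML210 or as controls, and the sources used here give neither the ML210 concentration nor what the controls received. Each line gave a Control group and an ML210 group, which makes 4 groups of 3 libraries. A batch label equals the replicate number in each library. No label says whether replicates were grown apart, so p-values reflect the spread among these libraries, which may be technical. The design calls SK-N-BE(2) MYCN-amplified and SK-N-AS non-amplified, with 1 line of each status, so a difference between lines and a difference between MYCN states cannot be told apart.

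The level of MYCN went against these labels. MYCN, the transcription factor amplified in a share of neuroblastomas, was measured at 3458, 3522 and 3693 CPM (counted reads scaled to a common library size of 1e6) in SK-N-AS Control libraries and at 3908, 3933 and 3723 CPM in SK-N-AS ML210 libraries. Under the other label, SK-N-BE(2), it was at 0.195, 0.221 and 0.0837 CPM in controls and at 0.0608, 0.161 and 0.24 CPM with ML210. All 6 libraries of one label were thus high and all 6 of the other near 0, in the reverse order of the stated amplification. Lines are therefore named below by their labels, and each direction given for a line holds for the libraries that carry its label. The summed level of 35 adrenergic identity genes, which mark the sympathetic neuron-like state of neuroblastoma, lay between 18500 and 19490 CPM under the SK-N-AS label and between 3382 and 4906 CPM under the SK-N-BE(2) label. That of 36 mesenchymal identity genes, which mark the alternative state, lay between 1005 and 1193 CPM and between 6216 and 7917 CPM. MYCN is itself a member of the adrenergic list and part of its sum, so that sum is not separate from the MYCN levels above. Both sums were scaled by library totals alone. None of the 35 adrenergic genes was without reads in any of the 4 groups. Which line the libraries came from was not tested.

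ML210 binds covalently to GPX4 and blocks it; this selenoenzyme uses glutathione to reduce lipid hydroperoxides within membranes. Loss of its activity leads to ferroptosis, an iron-dependent death by lipid peroxidation. Cells meet such stress partly through the transcription factor NRF2, whose targets make glutathione and thioredoxin, store iron and detoxify electrophiles, and partly through routes that do not use GPX4, among them tetrahydrobiopterin made from GTP by GCH1. GPX4 itself did not pass the test for a difference of responses. It stood at 282, 266 and 261 CPM in controls labelled SK-N-AS and at 254, 247 and 245 CPM with ML210, and at 242, 257 and 241 CPM and 215, 239 and 248.8 CPM under the SK-N-BE(2) label. Its difference was 0.04, with a 95% interval from -0.12 to 0.19 and an adjusted p of 0.893.

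The lines differed first in how many responses were called. Within the same fit, 38 genes (0.187%) had a called response under the SK-N-AS label, 21 higher (0.103%) and 17 lower (0.0837%) with ML210, and 1386 genes (6.83%) under the SK-N-BE(2) label, 695 higher (3.42%) and 691 lower (3.4%). The median standard error of a response was similar, 0.136 and 0.131 on the log2 scale. Over all genes tested, ML210-minus-control values of the same replicate number had quartiles 0.311, 0.328 and 0.369 apart under the SK-N-AS label. Under the SK-N-BE(2) label the quartiles were 0.501, 0.358 and 0.311 apart in replicates 1, 2 and 3. Replicate 3 of that label thus spread no wider than the pairs of the other. A response called under 1 label and not under the other is no test of a difference: 1282 of the 1386 genes were called neither under the SK-N-AS label nor in the difference itself. Of the 1386 genes, 78 were called in the difference, and of the 38 genes, 7 were. In bulk RNA, fewer cells of a type and less RNA per cell cannot be told apart, and this holds for each value below.

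Most called differences came from responses under the SK-N-BE(2) label. Of the 48 genes with a difference above 0, 41 rose under that label with no called response under the other, 3 fell under the SK-N-AS label with none under the SK-N-BE(2) label, 1 gene moved both ways and 3 had no called response in either line. Of the 37 genes below 0, 34 fell under the SK-N-BE(2) label with no call under the other, 2 fell in both and 1 rose under the SK-N-AS label only. The fitted responses had opposite signs for 32 of the 48 and 25 of the 37. The median difference was 0.64 above 0, with a range from 0.34 to 3.91, and -0.57 below 0, with sizes from 0.37 to 1.02. Over all 20304 genes the median was 0.01. For all 85 genes the 3 same-number pair differences of one line did not overlap with those of the other, as for 3904 of all genes tested (19.2%). An exact permutation test of 3 against 3 pairs cannot give a p below 0.1.

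**Figure D1:**
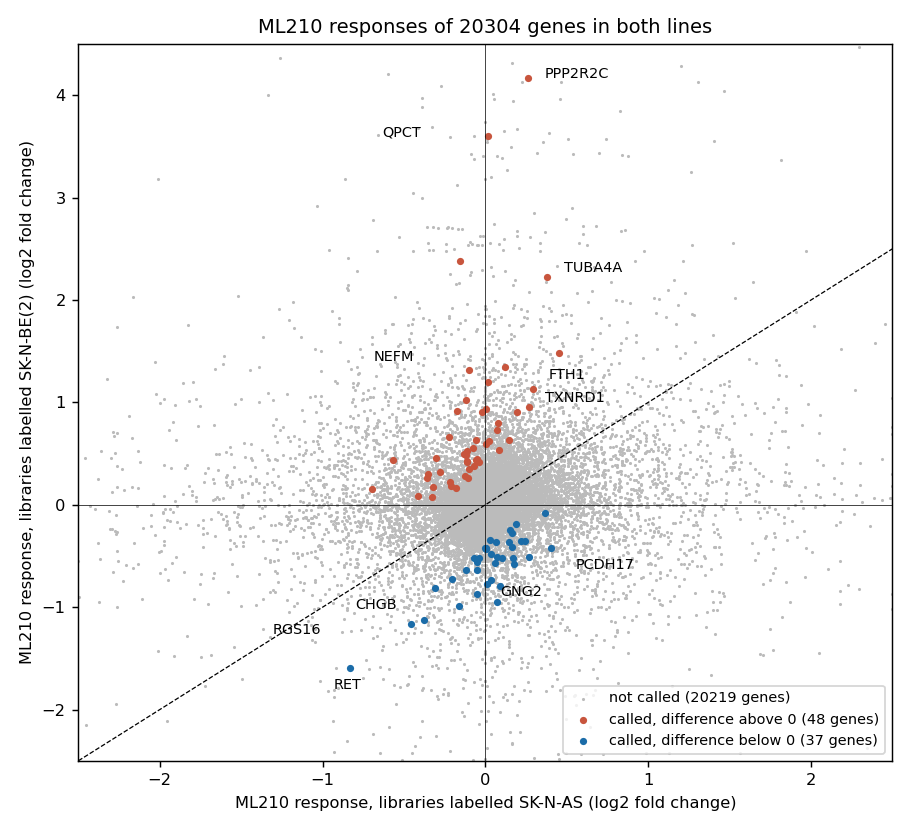
Response to ML210 (log2 fold change) under the SK-N-AS label on the horizontal axis and under the SK-N-BE(2) label on the vertical axis, 1 point per gene tested, with the 48 called genes above 0 in red, the 37 below 0 in blue and equal responses on the dashed line; 359 genes lie outside the axes. Called genes lie mainly along the vertical axis, where the response under the SK-N-AS label is near 0.

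The number of called genes depended on the pairing of libraries by batch. With no replicate block, the same test called 0 genes above 0 and 1 below 0, at 1454 genes with an unadjusted p under 0.05, against 2536 genes in the fit with the block. The called responses fell to 6 genes under the SK-N-AS label and 279 under the SK-N-BE(2) label. The gene called without the block was GNG2, which was also called in each of the 15 alternative fits. Without the 2 libraries of replicate 2 labelled SK-N-BE(2) the calls were 0 and 1, without replicate 1 labelled SK-N-AS 1 and 1, without replicate 2 labelled SK-N-AS 9 and 8, and without replicate 3 labelled SK-N-AS 23 and 13. Without replicate 1 labelled SK-N-BE(2) they were 35 and 19, and without replicate 3 labelled SK-N-BE(2) they were 241 and 319. The direction of all 85 genes was the same in each of the 15 fits that tested them, which reuse the libraries that gave the calls. Of the 85 calls, 1 was kept without replicate 2 labelled SK-N-BE(2), and 43 and 82 without replicates 1 and 3 of that label. Without replicates 1, 2 and 3 labelled SK-N-AS, 2, 12 and 25 were kept. Single calls other than that of GNG2 are therefore bound to the paired fit and to 1 or more of the pairs, and the values per library are given with them. With libraries scaled by their totals the calls were 33 above and 89 below 0, and with median-of-ratios size factors 48 and 23, so the share above 0 moved from 56.5% to 27.1% and 67.6%.

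Among redox and iron genes, TXNRD1, FTH1 and MSRB1 rose more under the SK-N-BE(2) label and GCH1 fell more. TXNRD1 encodes cytosolic thioredoxin reductase, a selenoenzyme and NRF2 target that keeps thioredoxin reduced. In controls labelled SK-N-AS it stood at 411, 378 and 382 CPM and with ML210 at 493, 467 and 449 CPM. With the SK-N-BE(2) label it stood at 269.8, 234 and 226 CPM in controls and at 591, 472 and 369 CPM with ML210. Control and ML210 levels did not overlap under either label, and the rise was 1.93-fold under the SK-N-BE(2) label (adjusted p = 4.332e-05) against 1.2-fold with an adjusted p of 0.172 under the other. The difference was 0.68 ± 0.096 (SE), with an adjusted p of 0.0194.

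FTH1, the heavy chain of ferritin, which oxidises iron for storage, showed the larger of these differences. It stood at 266, 287 and 265 CPM in controls labelled SK-N-AS and at 315, 344 and 341 CPM with ML210. For the SK-N-BE(2) label it stood at 576, 607 and 514 CPM in controls and at 1529, 1354 and 903 CPM with ML210. It rose 2.18-fold there, and replicate 3 was the lowest of the 3 treated libraries. The difference was 0.84 ± 0.13 (SE), adjusted p = 0.0353. FTH1 has many processed copies in the genome, so its counts are uncertain where reads could be split among them. The transferrin receptor TFRC, which brings iron into cells, had a difference of 0.59 that did not pass (adjusted p = 0.104).

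MSRB1, a selenoprotein that repairs oxidised methionine, stood at 40.5, 38.5 and 37.7 CPM in controls labelled SK-N-AS and at 36.5, 38.3 and 36.1 CPM with ML210. Under the SK-N-BE(2) label it stood at 29.3, 30.4 and 27.4 CPM and rose to 40.8, 39.1 and 33.9 CPM, and its difference was 0.45 ± 0.085 (SE), adjusted p = 0.0475. Its ML210 levels lay above all 3 controls under that label and overlapped with or lay below them under the other. GCH1, which makes tetrahydrobiopterin, an antioxidant and the cofactor of catecholamine synthesis, went the other way. It stood at 66.3, 94.8 and 101 CPM in controls labelled SK-N-AS and at 66.3, 92.6 and 95.96 CPM with ML210, each library close to its pair. With the SK-N-BE(2) label it fell from 42.4, 41.3 and 61.4 CPM to 25.9, 30.1 and 46.5 CPM, and the difference was -0.48 ± 0.086 (SE), adjusted p = 0.0404.

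The wider lists show how far these genes stand for their groups. Of 46 NRF2 targets listed, 43 were tested, and the difference was called above 0 for 2 of them (TXNRD1 and FTH1) and below 0 for none. Their median difference was 0.4 and 37 of 43 were positive, beside a median of 0.01 and 51.9% positive over all genes tested. Of all genes tested, 0.236% were called above 0. Under the SK-N-BE(2) label 36 of the 43 rose, beside 3.42% of all genes tested, and under the SK-N-AS label 7 did, beside 0.103%, with none falling in either. The median response by pair was 0.24, 0.26 and 0.33 under the SK-N-AS label and 0.91, 0.69 and 0.6 under the SK-N-BE(2) label, so the pairs of the lines did not overlap. Glutathione reductase GSR, which regenerates glutathione, lay just outside the threshold at 0.55 (adjusted p = 0.0508), as did MYH15 at -1.07 (0.0507) and RENBP at 1.23 (0.0518).

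Other redox lists held few called genes, and 0.419% of all genes tested were called. Among 35 ferroptosis suppressors TXNRD1 and FTH1 were above 0 and GCH1 below 0, with a median difference of 0.12. None of 31 tested ferroptosis promoters was called (median -0.04). Among 29 tested iron handling genes FTH1 was called (median 0.09), and among 20 tested selenoproteins TXNRD1 and MSRB1 (median 0.09). No glutathione gene was called among 32 tested (median 0.12), and GSTM3, a glutathione transferase, had 0.44 (adjusted p = 0.0579). The metallothionein MT1X, which binds zinc and copper, rose in both lines, by 1.75 under the SK-N-AS label and 0.7 under the SK-N-BE(2) label, and its difference of -1.05 did not pass (adjusted p = 0.0737).

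**Figure D2:**
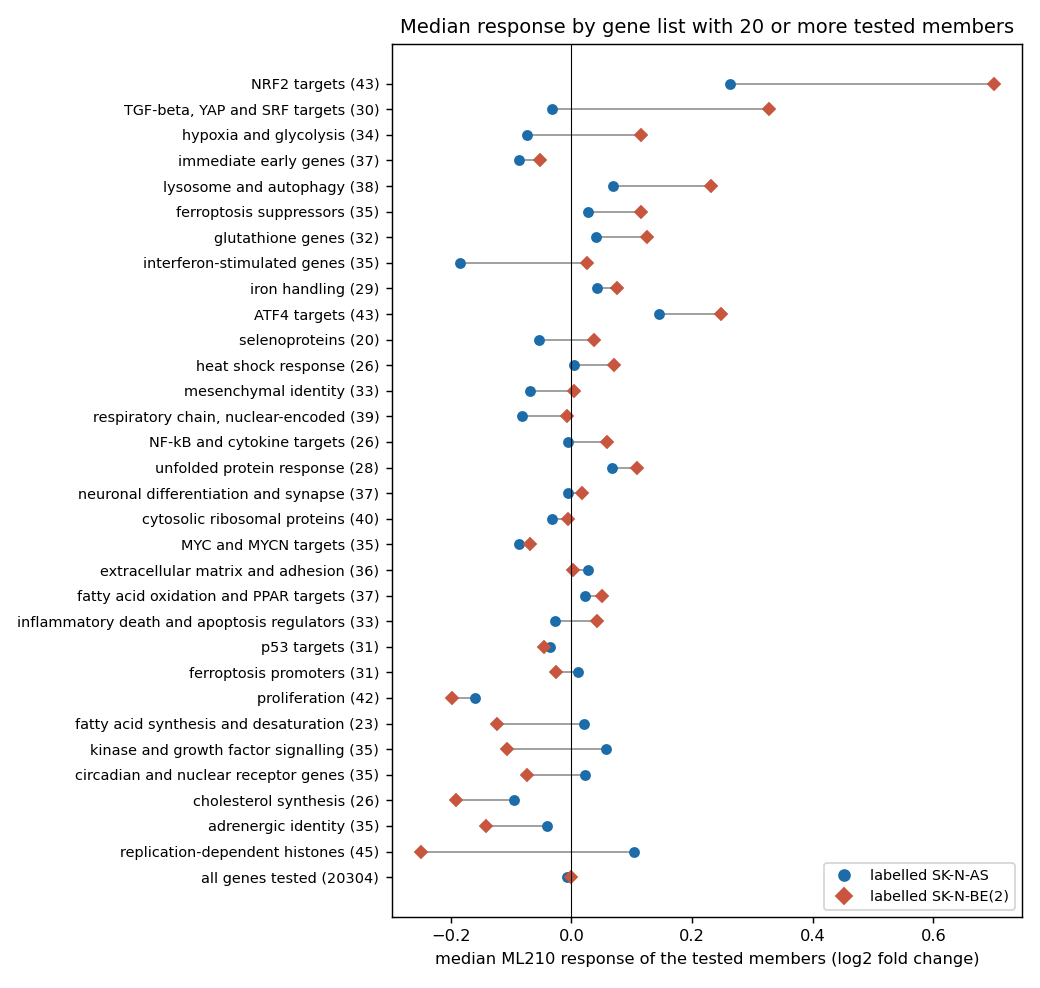
Median response to ML210 (log2 fold change) of the tested members of each gene list with 20 or more tested members, blue circles for the SK-N-AS label and red diamonds for the SK-N-BE(2) label, with the number tested in brackets; no error is drawn. NRF2 targets have medians of 0.26 and 0.7, and all genes tested have medians near 0 under both labels.

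Promoter sequences of the called genes were searched because TXNRD1 is a textbook target of NRF2, which binds the antioxidant response element, and because actin-linked genes carry serum response factor sites known as CArG boxes. RefSeq promoters on GRCh38.p14, from 250 bases before to 50 bases after each start, were matched for 34 of the 48 genes above 0 and 30 of the 37 below 0. The element TGACNNNGC was found, on either strand, in 13.6% of 27305 promoters, in 11.8% of the 34 (BRI3, ETS2, FAM219A and TXNRD1) and in 3.33% of the 30 (CPED1). Its share among the genes above 0 was thus near that of all promoters. The CArG box was found in 1.29% of all promoters, in 5.88% of the 34 (KCNK3 and TPM4) and in none of the 30. The cyclic AMP element TGACGTCA was found in 1.98%, 11.8% (AOPEP, CLTB, DUSP8 and TUBB2A) and 3.33% (CLSTN3), the AP-1 element TGACTCA in 4.92%, 0% and 0%, and the E-box CACGTG in 7.43%, 5.88% (BRI3 and GTPBP6) and 6.67% (ATP7A and SMAD3). A match is a run of letters, not a site shown to be bound. The promoters of TXNRD1 (chr12:104215529-104215828, plus strand) and BRI3 (chr7:98281436-98281735, plus strand) are printed with TGACNNNGC matches in capitals, and that of TPM4 (chr19:16067288-16067587, plus strand) with its CArG box in capitals. The matches begin 99 and 8 bases before the start in TXNRD1, 69 before it in BRI3 and 173 before it in TPM4. The TXNRD1 window surrounds the outermost annotated start of that gene. Whether these libraries used that start, or NRF2 acts there, was not tested, so its matches are not tied to the response of TXNRD1.
TXNRD1: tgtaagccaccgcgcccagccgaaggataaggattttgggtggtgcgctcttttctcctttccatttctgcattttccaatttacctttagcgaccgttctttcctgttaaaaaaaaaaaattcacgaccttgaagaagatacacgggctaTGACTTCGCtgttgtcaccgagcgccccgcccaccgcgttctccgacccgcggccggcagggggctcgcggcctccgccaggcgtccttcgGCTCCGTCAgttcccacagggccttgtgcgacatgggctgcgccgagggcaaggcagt
BRI3: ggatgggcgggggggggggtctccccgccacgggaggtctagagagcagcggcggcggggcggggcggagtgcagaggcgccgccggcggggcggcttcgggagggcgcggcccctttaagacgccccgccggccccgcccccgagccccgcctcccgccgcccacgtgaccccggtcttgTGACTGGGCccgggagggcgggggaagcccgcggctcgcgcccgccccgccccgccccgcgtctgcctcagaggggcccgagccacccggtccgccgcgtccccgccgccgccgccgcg
TPM4: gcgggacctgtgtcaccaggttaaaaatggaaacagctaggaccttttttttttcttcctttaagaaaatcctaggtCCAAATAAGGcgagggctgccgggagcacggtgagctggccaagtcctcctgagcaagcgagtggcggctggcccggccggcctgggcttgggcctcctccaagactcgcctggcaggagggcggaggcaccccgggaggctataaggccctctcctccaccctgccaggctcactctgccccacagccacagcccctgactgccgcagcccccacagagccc

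BRI3, with a TGACNNNGC match in its promoter, was among the genes with the smallest p. It stood at 73.5, 81.3 and 77.3 CPM in controls labelled SK-N-AS and at 66.8, 69.8 and 74.9 CPM with ML210, and at 79.2, 76.3 and 70.2 CPM and 116, 108 and 94.3 CPM under the SK-N-BE(2) label. Its difference was 0.63 ± 0.072 (SE), adjusted p = 0.00662. BRI3 was chosen after its values were seen.

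Called genes above 0 also included genes for actin, actin-binding proteins, tubulins and neurofilaments. They are set side by side by role, as a grouping made after the calls were seen and not tested as a list. ACTB, TUBB6, TUBB2A, TPM4, WDR1 and BAIAP2 are named after their values were seen, and the others by the rule. ACTB, the beta-actin used as a reference in many assays, stood at 5652, 5507 and 5266 CPM in controls labelled SK-N-AS and at 3896, 4467 and 4479 CPM with ML210. For the SK-N-BE(2) label it stood at 4707, 4324 and 3996 CPM in controls and at 6042, 5185 and 4463 CPM with ML210. Each pair fell under the first label (-0.36, adjusted p = 0.0607, which did not pass) and rose under the second (0.26, adjusted p = 0.0364). The difference was 0.62 ± 0.094 (SE), adjusted p = 0.02.

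The tropomyosins TPM1 and TPM4, which wind along actin filaments, moved in the same sense. TPM1 stood at 138, 114 and 103 CPM in controls labelled SK-N-AS and at 110.3, 84.1 and 97.9 CPM with ML210, and at 232, 209 and 147 CPM and 286, 268 and 181 CPM under the SK-N-BE(2) label. Its difference was 0.6 ± 0.087 (SE), adjusted p = 0.0198. That of TPM4 was 0.45, with a response of 0.35 under the SK-N-BE(2) label (adjusted p = 0.00359) and of -0.1 under the other. The other tested tropomyosins, TPM2 and TPM3, had differences of -0.05 and 0.07 and were not called.

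PALLD encodes the actin-bundling protein palladin. It stood at 58.8, 70.0 and 70.9 CPM in controls labelled SK-N-AS and at 58.7, 70.5 and 71.1 CPM with ML210. Under the SK-N-BE(2) label it rose from 20.4, 16.5 and 14.1 CPM to 45.8, 33.0 and 21.6 CPM. The 3 pair differences lay between -0.001 and 0.011 under the first label and were 1.17, 1.0 and 0.61 under the second, and the difference was 0.93 ± 0.12 (SE), adjusted p = 0.0155. WDR1, which helps cofilin take filaments apart, had a difference of 0.4, and BAIAP2, which links Rac to membrane ruffles, of 0.53.

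RHOC, a small GTPase that drives actomyosin contraction, was instead called under the SK-N-AS label. It fell there from 34.0, 41.0 and 40.6 CPM to 26.98, 27.9 and 31.9 CPM, below all 3 controls. With the SK-N-BE(2) label it stood at 72.7, 80.9 and 70.5 CPM in controls and at 72.3, 85.2 and 79.7 CPM with ML210, and these overlapped. The difference was 0.49 ± 0.085 (SE), adjusted p = 0.0353. Over 6 tested actins ACTB was called and 5 were positive, beside 0.236% called above 0 and 51.9% positive over all genes tested. ACTG1, the other cytoplasmic actin, had a difference of 0.94 that did not pass (adjusted p = 0.0668).

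Of the tubulins, the subunits of microtubules, TUBA4A had the largest called difference. It stood at 9.39, 10.7 and 12.0 CPM in controls labelled SK-N-AS and at 13.7, 14.6 and 13.3 CPM with ML210. For the SK-N-BE(2) label it rose from 3.73, 4.5 and 2.33 CPM to 26.3, 19.2 and 7.57 CPM, a 4.67-fold change. The line that was lower in controls thus reached the level of the other or passed it in replicates 1 and 2. The difference was 1.84 ± 0.24 (SE), adjusted p = 0.0198. TUBB6 had a difference of 0.44, from 100.6 ± 1.46 CPM (SD, n = 3) to 86.4 ± 3.73 CPM under the SK-N-AS label and from 148 ± 12.1 CPM to 173 ± 17.5 CPM under the other. TUBB2A had one of 0.54.

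Of 14 tested alpha- and beta-tubulins, 13 had a positive difference and 3 were called. Over all genes tested, 51.9% were positive and 0.236% were called above 0. With either other scaling 13 tubulins were positive. Without replicate 1 labelled SK-N-AS 11 were, and without replicates 2 or 3 labelled SK-N-BE(2) 12 and 13 were. The family was chosen after these calls were seen. Tubulin and actin genes share long stretches of sequence, so counts of single members are uncertain. DYNC1I1, an intermediate chain of cytoplasmic dynein, the motor that runs on microtubules, rose under the SK-N-BE(2) label from 1.62, 1.81 and 0.81 CPM to 5.36, 4.47 and 2.17 CPM. It stood at 13.2, 11.6 and 12.5 CPM in controls labelled SK-N-AS and at 17.1, 18.7 and 15.4 CPM with ML210. All 6 pairs were positive, and the difference was 1.03 ± 0.18 (SE), adjusted p = 0.0374.

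The neurofilament genes NEFL and NEFM, which form the axonal skeleton of neurons and lie side by side on chromosome 8, both rose under the SK-N-BE(2) label alone among the 2 labels. NEFL stood at 716, 801 and 808 CPM in controls labelled SK-N-AS and at 717, 835 and 813 CPM with ML210. Under the SK-N-BE(2) label it rose from 50.2, 43.5 and 29.8 CPM to 80.6, 65.6 and 44.8 CPM, with a difference of 0.6 ± 0.065 (SE), adjusted p = 0.00462. NEFM stood at 600.1, 755 and 644 CPM and 630.4, 698 and 682 CPM under the first label and rose from 10.1, 10.9 and 6.63 CPM to 29.5, 24.6 and 11.9 CPM under the second. Its difference was 1.19 ± 0.15 (SE), adjusted p = 0.0198. Of 7 tested intermediate filament genes of neurons, 5 were positive and these 2 were called. Over all genes tested, 51.9% were positive and 0.236% were called above 0.

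**Figure D3:**
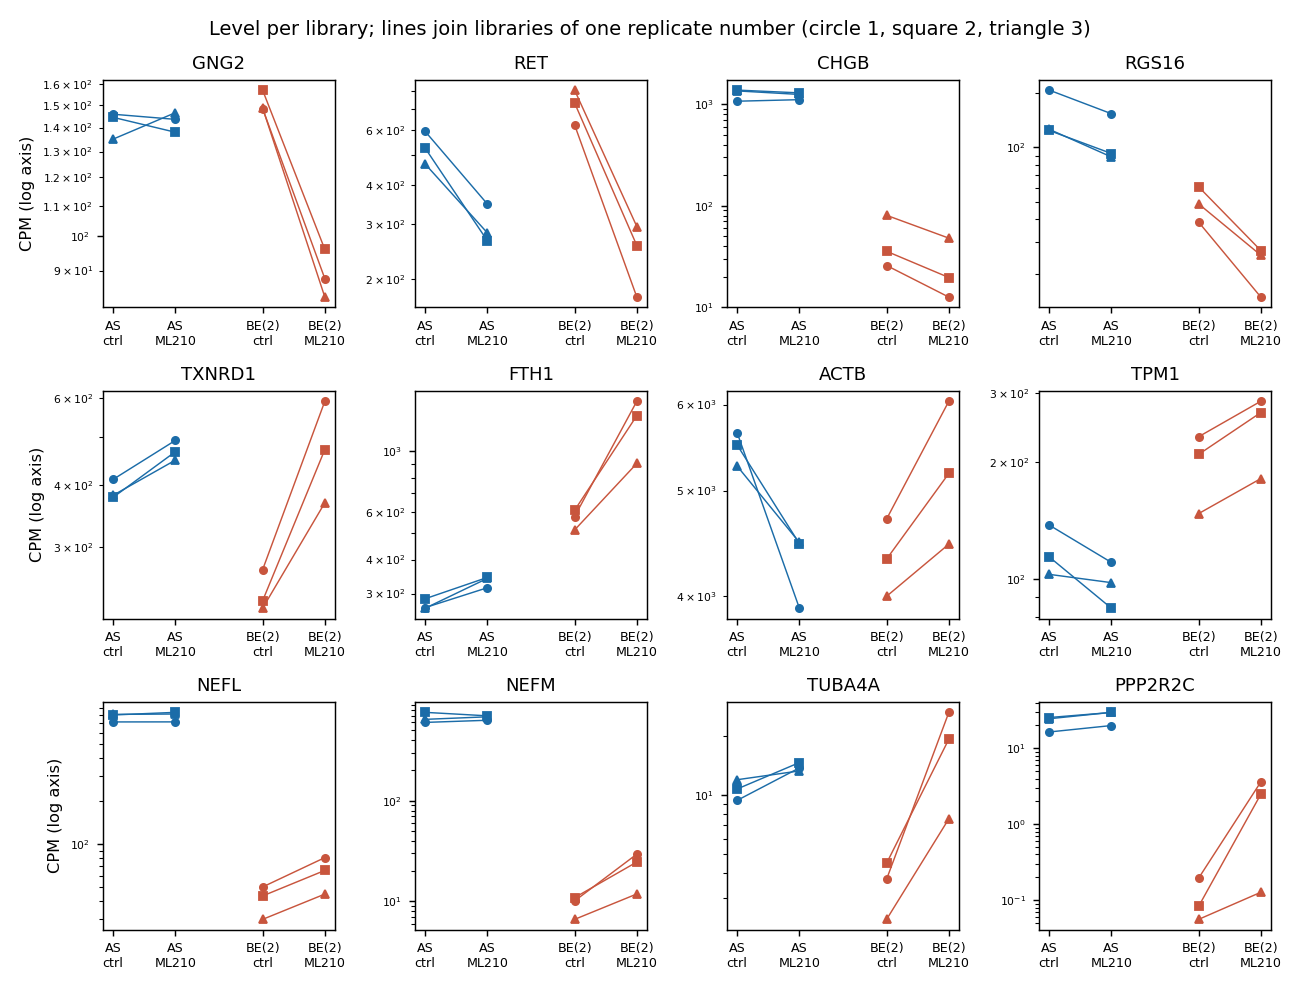
Level of 12 called genes in CPM (log axis, a separate range in each panel) in each library, blue for the SK-N-AS label and red for the SK-N-BE(2) label, with lines joining control and ML210 libraries of the same replicate number. On the right of their panels GNG2, RET, CHGB and RGS16 fall and the other 8 genes climb. On the left RET and RGS16 fall less steeply, and ACTB and TPM1 also fall in each pair.

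Targets of TGF-beta, YAP and serum response factor, which link adhesion and actin tension to transcription, had a median difference of 0.39 over 30 tested genes, with 26 positive. The called ones were TPM1 above 0 and SMAD3 below 0. Over all genes tested, 51.9% were positive and 0.419% were called. The median response by pair was -0.04, -0.2 and 0.1 under the SK-N-AS label and 0.35, 0.36 and 0.12 under the SK-N-BE(2) label. SMAD3, the TGF-beta signal transducer, stood at 28.1, 33.5 and 35.9 CPM in controls labelled SK-N-AS and at 30.3, 33.0 and 34.2 CPM with ML210. It fell from 108, 112 and 108 CPM to 73.1, 88.6 and 81.2 CPM under the SK-N-BE(2) label, and its difference was -0.44 ± 0.082 (SE), adjusted p = 0.0469.

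Further named genes above 0 had varied roles. DGKG, a diacylglycerol kinase, stood at 53.2, 47.8 and 44.5 CPM in controls labelled SK-N-AS and at 49.5, 43.9 and 40.8 CPM with ML210, and rose from 10.4, 8.57 and 8.47 CPM to 26.8, 18.8 and 12.3 CPM under the SK-N-BE(2) label. Its difference was 1.14 ± 0.17 (SE), adjusted p = 0.0319. DUSP8, a phosphatase of stress-activated MAP kinases, had a difference of 1.01 although neither response was called: it stood at 16.7, 17.4 and 17.8 CPM and 9.92, 13.2 and 12.1 CPM under the SK-N-AS label and at 1.14, 0.993 and 1.44 CPM and 1.53, 1.45 and 1.85 CPM under the other. All 3 pairs went down in the first line and all 3 went up in the second.

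SLC2A1, the glucose transporter GLUT1 and the called member among 34 hypoxia and glycolysis genes, stood at 164, 125 and 141 CPM in controls labelled SK-N-AS and at 161, 122.6 and 114 CPM with ML210. It rose from 77.4, 69.2 and 70.7 CPM to 119, 102 and 93.8 CPM under the SK-N-BE(2) label, with a difference of 0.64 ± 0.089 (SE), adjusted p = 0.0161. The median difference of that list was 0.19, with 29 of 34 positive, beside 51.9% positive and 0.419% called over all genes tested. CSF1, the macrophage growth factor and the called member among 26 NF-kB and cytokine targets, had a difference of 0.49, with 28.97, 30.2 and 27.2 CPM against 33.4, 30.7 and 31.2 CPM under the SK-N-AS label and 49.4, 56.8 and 39.0 CPM against 84.7, 82.5 and 58.9 CPM under the SK-N-BE(2) label. The median difference of those targets was 0.06. UAP1L1 had a difference of 0.72 (adjusted p = 0.0108) and rose 1.74-fold under the SK-N-BE(2) label.

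PRSS23, a secreted serine protease, rose under the SK-N-BE(2) label from 57.4, 42.4 and 27.6 CPM to 82.6, 67.8 and 47.9 CPM, and stood at 2.64, 4.82 and 4.41 CPM and 1.71, 3.96 and 4.73 CPM under the SK-N-AS label. Its difference was 0.89 ± 0.15 (SE), adjusted p = 0.0366. ST6GALNAC5, a sialyltransferase of gangliosides, had a difference of 0.92 (adjusted p = 0.0445) and rose from 1.8, 1.46 and 1.8 CPM to 3.34, 3.34 and 2.8 CPM. The first of these genes was thus higher in the line in which it rose, and the second lower, at 18.03 to 20.4 CPM under the SK-N-AS label. Over the 48 genes above 0, 34 had the higher control level under the SK-N-AS label, as did 15 of the 37 below 0.

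Several of the largest differences came from genes near 0 under the SK-N-BE(2) label. PPP2R2C, a brain-enriched regulatory subunit of the phosphatase PP2A on chr4:6320578-6563600, stood at 16.4, 25.4 and 24.5 CPM in controls labelled SK-N-AS and at 19.9, 29.7 and 29.8 CPM with ML210. With the SK-N-BE(2) label it had 12, 6 and 4 reads in controls and 238, 155 and 9 reads with ML210, or 3.61, 2.49 and 0.127 CPM. Replicate 3 thus lay near the controls, and the other treated libraries far above them. The fitted difference was 3.91 ± 0.34 (SE), adjusted p = 0.00169, and its pair differences were 4.02, 4.48 and 0.87. The call was lost without replicate 2 labelled SK-N-BE(2), and the difference lay between 3.45 and 4.16 over the 15 alternatives.

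QPCT, a glutaminyl cyclase that modifies peptide hormones, had 0, 2 and 0 reads in controls labelled SK-N-BE(2) and 12, 12 and 3 reads with ML210, at 13.1 to 15.3 CPM under the SK-N-AS label. Per counted read this was a 14.02-fold ratio, with an exact 95% interval from 3.52 to 122 that covers counting error only. The fitted difference of 3.58 (adjusted p = 0.0415) depends on the prior count and is no bound. DIRAS1, a small Ras-family GTPase, had 12, 10 and 14 reads against 42, 18 and 31 reads, with a difference of 1.22 (adjusted p = 0.0459). UBE2QL1, of the ubiquitin-conjugating enzyme family, had 7, 25 and 8 reads against 30, 46 and 17 reads, with a difference of 1.42 (adjusted p = 0.0477). The gene with the identifier ENSG00000288658, which has no symbol and was chosen after its values were seen, had 5, 5 and 9 reads against 24, 24 and 50 reads, with a difference of 2.53 (adjusted p = 0.02).

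KCNK3, the background potassium channel TASK-1, was likewise low under the SK-N-BE(2) label. It stood at 349, 307 and 288 CPM in controls labelled SK-N-AS and at 302, 265 and 267 CPM with ML210. It rose from 1.67, 1.32 and 1.67 CPM to 3.86, 2.84 and 2.26 CPM under the SK-N-BE(2) label, with a difference of 1.09 ± 0.15 (SE), adjusted p = 0.0161. Its control level under that label was 0.495% of the other label's, and 1.07% with ML210. For QPCT these shares were 0.0652% and 0.977%, for DIRAS1 0.224% and 0.532%, for UBE2QL1 0.532% and 1.44%, and for PPP2R2C 0.502% and 7.85%.

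A common background of such shares was measured for comparison. For 69 genes with at least 50 CPM under the SK-N-AS label and at most 3% of that level under the other, the median share was 0.364%, 0.256% and 0.525% in the controls labelled SK-N-BE(2) and 0.362%, 0.315% and 0.446% with ML210. These medians did not rise with ML210 in a common direction. For 42 genes of the converse kind it was 0.346%, 1.69% and 1.48% in controls labelled SK-N-AS and 0.362%, 1.19% and 1.77% with ML210. The part of such traces in the differences of genes near 0 was not tested.

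RHOC, GTPBP6 and NR1D2 were called under the SK-N-AS label alone and also in the difference. GTPBP6, a GTP-binding protein, fell under the SK-N-AS label from 55.5, 56.3 and 50.9 CPM to 43.8, 42.4 and 43.5 CPM and had a difference of 0.41 (adjusted p = 0.0459), which was lost in each of the 6 fits without a pair.

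NR1D2, the circadian repressor REV-ERB beta, was the called member among 35 tested circadian and nuclear receptor genes. It rose under the SK-N-AS label from 23.5, 29.02 and 28.9 CPM to 31.6, 35.8 and 37.3 CPM, a response of 0.36 (adjusted p = 0.0288). Under the SK-N-BE(2) label it stood at 67.3, 64.1 and 65.01 CPM in controls and at 59.5, 63.3 and 63.3 CPM with ML210, a response of -0.08. The difference was -0.44 ± 0.078 (SE), adjusted p = 0.0391, and the list's median was -0.13. YPEL5, MTURN, ITGB5 and TLX2 were also called under the SK-N-AS label alone, with differences of -0.23, -0.48, 0.38 and 0.17 that did not pass (adjusted p = 0.34, 0.063, 0.118 and 0.385). For these 4 genes a difference between the lines was not shown. The fatty acid oxidation enzyme CPT1A rose in both lines, by 0.81 and 0.38, and its difference of -0.42 did not pass (adjusted p = 0.0752).

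The genes below 0 included GNG2, RGS16 and PTGER2, which act in signalling through G proteins and are placed together for that role only. GNG2, a gamma subunit of heterotrimeric G proteins on chr14:51826195-51979342, kept its call in each alternative fit. It stood at 145.9, 144 and 135 CPM in controls labelled SK-N-AS and at 144, 138 and 147 CPM with ML210. With the SK-N-BE(2) label it stood at 148, 157 and 148.8 CPM in controls, close to the other line, and fell to 87.8, 96.1 and 82.9 CPM with ML210. The 3 treated libraries of that label lay below all 9 others. The difference was -0.78 ± 0.072 (SE), adjusted p = 0.00169, and over the 15 alternatives it lay between -0.84 and -0.73, with adjusted p from 9.64e-17 to 0.0483.

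RGS16, which speeds GTP hydrolysis by G protein alpha subunits, fell in both lines. It went from 208, 124 and 126 CPM to 154, 92.6 and 88.6 CPM under the SK-N-AS label, a response of -0.46 (adjusted p = 0.0233). It went from 38.6, 60.6 and 48.7 CPM to 14.8, 26.9 and 25.3 CPM under the SK-N-BE(2) label, a response of -1.16 (adjusted p = 2.177e-05). The difference was -0.7 ± 0.097 (SE), adjusted p = 0.0161. PTGER2, the Gs-coupled prostaglandin E2 receptor EP2, fell under the SK-N-BE(2) label from 79.2, 78.2 and 93.2 CPM to 49.4, 47.1 and 73.5 CPM and stood at 80.5, 90.4 and 103 CPM and 91.5, 113 and 104 CPM under the other. Its difference was -0.76 ± 0.11 (SE), adjusted p = 0.02.

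The families of these genes held 1 called gene each. GNG2 was called among 14 tested beta and gamma subunits, with 4 of the 14 positive and a median difference of -0.18. RGS16 was called among 17 tested RGS genes, with 7 positive and a median of -0.13. Over all genes tested, 51.9% were positive and 0.182% were called below 0. Both families were chosen after the calls were seen. RGS5 had a difference of -0.49 that did not pass (adjusted p = 0.0587).

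The adrenergic identity list held called genes in both directions. Of 35 adrenergic identity genes, CHGB, RET and DDC were called below 0 and NEFL and NEFM above 0, with a median difference of -0.18 and 13 positive. Over all genes tested, 0.182% were called below 0, 0.236% were called above 0 and 51.9% were positive. Under the SK-N-BE(2) label 11 of the 35 fell and 3 rose, beside 3.4% and 3.42% of all genes tested, and under the SK-N-AS label 1 fell, beside 0.0837%. RET, the receptor tyrosine kinase for GDNF-family ligands, fell in both lines. It went from 595, 526 and 468 CPM to 348, 266 and 282 CPM under the SK-N-AS label, a 0.562-fold change. It went from 624, 734 and 807 CPM to 176, 256 and 295 CPM under the SK-N-BE(2) label, a 0.33-fold change. Control and ML210 levels were apart in both lines, and the difference was -0.77 ± 0.1 (SE), adjusted p = 0.0161.

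CHGB, chromogranin B, a core protein of dense secretory granules, changed under 1 label. It stood at 1067, 1373 and 1348 CPM in controls labelled SK-N-AS and at 1105, 1289 and 1244 CPM with ML210, and the groups overlapped. It fell from 25.8, 35.6 and 80.4 CPM to 12.6, 19.6 and 47.9 CPM under the SK-N-BE(2) label. There the replicates were further apart than the groups, while each of the 3 pairs fell, by 1.03, 0.86 and 0.75 on the log2 scale. The difference was -0.82 ± 0.085 (SE), adjusted p = 0.00387 with the block and 0.88 without it.

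DDC, the decarboxylase that makes dopamine, is the fifth called member of that list and was added after its values were seen. It stood at 406, 457 and 484 CPM in controls labelled SK-N-AS and at 400.1, 462 and 435 CPM with ML210. It fell from 58.9, 69.6 and 84.5 CPM to 34.8, 41.5 and 64.1 CPM under the SK-N-BE(2) label, with a difference of -0.58 ± 0.097 (SE), adjusted p = 0.0353. NMNAT2, the axonal enzyme that makes NAD, stood at 207 ± 9.11 CPM (SD, n = 3) in controls and 220.3 ± 3.92 CPM with ML210 under the SK-N-AS label and fell from 8.16, 10.8 and 6.36 CPM to 3.39, 7.29 and 4.1 CPM under the other. Its difference was -0.89 ± 0.14 (SE), adjusted p = 0.0366.

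Further named genes below 0 had varied roles. MMP28, a secreted matrix metalloproteinase, had the largest difference of this direction. It stood at 2.94, 3.89 and 3.85 CPM in controls labelled SK-N-AS and at 2.85, 4.15 and 4.3 CPM with ML210, and fell from 12.4, 13.6 and 11.4 CPM to 5.21, 7.7 and 6.6 CPM under the SK-N-BE(2) label. The difference was -1.02 ± 0.19 (SE), adjusted p = 0.0429. PCDH17, a protocadherin, had a difference of -0.83 (adjusted p = 0.041), with pair differences of 0.51, 0.22 and 0.48 under the SK-N-AS label and -0.69, -0.53 and -0.1 under the other.

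PAK1, a kinase activated by Rac and Cdc42, fell under the SK-N-BE(2) label from 37.8, 34.0 and 28.3 CPM to 22.8, 24.2 and 23.0 CPM. It stood at 1.68, 3.96 and 3.37 CPM and 2.07, 4.4 and 4.35 CPM under the SK-N-AS label, where each pair rose, and its difference was -0.78 ± 0.15 (SE), adjusted p = 0.0466. The long non-coding RNA LINC01116 had a difference of -0.83 (adjusted p = 0.0194) and fell 0.504-fold under the SK-N-BE(2) label. CPED1 had one of -0.77 (adjusted p = 0.0469), SMIM3 one of -0.75 (adjusted p = 0.0391) and REC8, a meiotic cohesin subunit, one of -0.5 (adjusted p = 0.0466). Each of these 4 genes was higher in controls labelled SK-N-BE(2) than in controls labelled SK-N-AS.

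**Figure D4:**
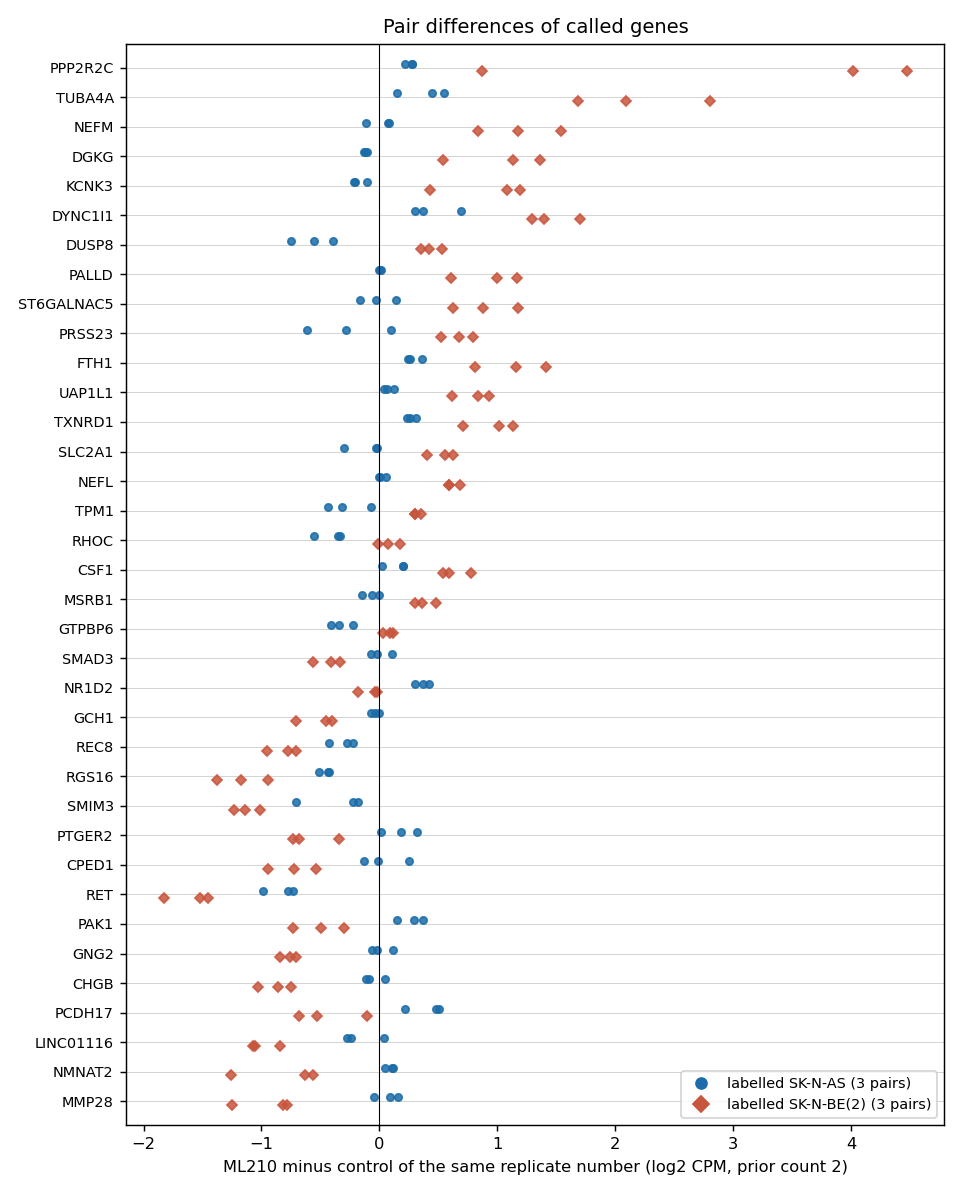
ML210 minus control of the same replicate number in log2 CPM (prior count 2) for called genes chosen by the rule, with at least 1 CPM in each line, 3 blue circles for the SK-N-AS label and 3 red diamonds for the SK-N-BE(2) label, ordered by the difference of responses. For each gene the circles and diamonds do not overlap, and those of PPP2R2C under the SK-N-BE(2) label range from 0.87 to 4.48.

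The called genes not described so far follow with their differences. Above 0 they included GEM (0.76), GPC1 (0.71), BASP1 (0.69), KIAA0930 (0.66), MARCHF4 (0.63), CUTC (0.6), FAM219A (0.59), NKX6-1 (0.5), WFS1 (0.49), AOPEP (0.49), CLTB (0.46), ATP6V0E1 (0.46), ETS2 (0.41), ASPH (0.36) and LYN (0.34). GPC1 is a cell-surface heparan sulfate proteoglycan, BASP1 an axonal membrane protein, ATP6V0E1 a subunit of the proton pump of lysosomes and LYN a Src-family kinase. ENPP2, the lysophosphatidic acid-making enzyme autotaxin, had a difference of 0.66 and was the gene called both ways, at -0.35 under the SK-N-AS label (adjusted p = 0.0452) and 0.3 under the other (adjusted p = 0.0395). These genes and those of the next sentence were chosen to complete the account, after their values were seen.

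Below 0 the rest were DOCK11 (-0.69), PI15 (-0.63), XPR1 (-0.62), PDCD4 (-0.59), STXBP5 (-0.58), ATP8A1 (-0.57), ADAM22 (-0.57), OSBPL3 (-0.52), FAM163A (-0.52), PTPRR (-0.51), ARHGAP23 (-0.51), ESRRG (-0.51), FRMD3 (-0.45), CLSTN3 (-0.44), MMP16 (-0.43), ATP7A (-0.42), ASPM (-0.42), KIFAP3 (-0.4), UBE2H (-0.38) and CADM1 (-0.37). XPR1 exports phosphate, ATP7A exports copper, OSBPL3 binds lipids at membrane contacts and ASPM acts at the mitotic spindle pole. Their responses under the SK-N-BE(2) label lay between -0.72 and -0.19.

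Lists with no called member gave these values, beside 51.9% positive and 0.419% called over all genes tested. Cholesterol synthesis had 26 tested genes, a median difference of -0.16 and 3 positive. Of the 26, 14 fell under the SK-N-BE(2) label, beside 3.4% of all genes tested. None was called lower under the SK-N-AS label, beside 0.0837%. The median response of this list by pair was -0.13, 0.005 and -0.13 under the SK-N-AS label and -0.23, -0.29 and -0.16 under the SK-N-BE(2) label. INSIG1 and SQLE had differences of -0.35 and -0.3 (adjusted p = 0.0821 and 0.0828), and the desaturase SCD of -0.33 (adjusted p = 0.0682). Lysosome and autophagy genes had a median of 0.15 over 38, with CTSL at 0.6 (adjusted p = 0.104). These lists thus leaned one way with no single gene past the threshold.

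Heat shock genes had a median of 0.09 over 26, with HSPB1 at 0.43 (adjusted p = 0.0555), and ATF4 targets 0.09 over 43, with DDIT4 at -0.51 (adjusted p = 0.0738). Kinase and growth factor signalling genes had a median of -0.11 over 35, with 9 positive. Among them SPRY4 and DUSP6, feedback inhibitors of the ERK pathway, had differences of -0.47 and -0.63 (adjusted p = 0.0738 and 0.107). Replication-dependent histones had a median of -0.34 over 45, with H2BC5 at -0.63 (adjusted p = 0.107), and 11 positive. Histone transcripts mostly lack the poly(A) tail by which mRNA libraries are selected.

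Extracellular matrix and adhesion genes had a median of 0.01 over 36, with TIMP3 at -0.83 (adjusted p = 0.0553) and ITGA1 at -0.42 (adjusted p = 0.0579). Mesenchymal identity genes had a median of 0.09 over 33, with THY1 at 0.42 (adjusted p = 0.0717). Targets of MYC and MYCN had one of 0.02 over 35, and cytosolic ribosomal proteins of 0.03 over 40. With library totals the sign of 3 of these medians turned, to -0.04 for matrix and adhesion genes, -0.03 for MYC and MYCN targets and -0.02 for ribosomal proteins. MYCN itself had a difference of -0.18, with a 95% interval from -1.2 to 0.83.

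Transcripts of the mitochondrial genome were positive in 13 of 13 genes, beside 51.9% of all genes tested. Their median difference was 0.51, with no call. Without replicate 2 labelled SK-N-BE(2), 12 were positive and the median was 0.32. MT-ND1, a subunit of complex I, had 0.7 (adjusted p = 0.125) and MT-CYB 0.55 (adjusted p = 0.227). Their median response by pair was -0.22, -0.5 and -0.34 under the SK-N-AS label and 0.12, 0.52 and -0.16 under the SK-N-BE(2) label. The share of reads they took was 4.25%, 4.82% and 5.28% in controls labelled SK-N-AS and 3.82%, 3.58% and 4.39% with ML210, and 2.15%, 1.94% and 2.27% and 2.27%, 2.73% and 2.02% under the SK-N-BE(2) label. The pairs of the lines did not overlap in their medians, while 6 of the 13 genes had no overlap singly, beside 19.2% of all genes tested. The nuclear-encoded respiratory chain had a median of 0.08 over 39 genes and no call.

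Markers of other cell types were measured as sums over each list. The sums were scaled by library totals alone, so they are not on the same scale as the CPM of single genes. No endothelial, epithelial, Schwann cell or blood cell marker was called in the difference, beside 0.419% of all genes tested. Those tested were 12 of 12 endothelial, 8 of 12 epithelial, 7 of 11 Schwann cell and 3 of 14 blood cell markers. With so few tested, the lack of calls says little about these markers. Summed levels of 14 blood cell markers lay between 1.41 and 3.22 CPM in controls labelled SK-N-AS and between 1.59 and 2.99 CPM with ML210. They lay under the SK-N-BE(2) label between 284.8 and 360.3 CPM in controls and between 177 and 316 CPM with ML210, with 7 of the 14 at 0 in the controls and 8 with ML210. Most of that sum was PTPRC, the leukocyte phosphatase CD45, at 278, 263 and 329 CPM in controls labelled SK-N-BE(2) and at 162, 191 and 289 CPM with ML210. Each of its 3 pairs had a negative difference, of -0.78, -0.46 and -0.19 on the log2 scale, and neither that response (adjusted p = 0.194) nor its difference of -0.58 (adjusted p = 0.675) passed. Summed endothelial markers lay between 60.7 and 100.8 CPM and between 59.5 and 99.7 CPM in controls and ML210 libraries labelled SK-N-AS, and between 100.7 and 144 CPM and between 114 and 140.4 CPM under the other label. Those of Schwann cells lay between 34.2 and 39.9 CPM and between 38.9 and 41.7 CPM, and between 57.6 and 58.9 CPM and between 59.5 and 66.2 CPM. Epithelial markers summed to between 12.6 and 15.3 CPM and between 10.3 and 12.3 CPM, and to between 227 and 301 CPM and between 212 and 325 CPM. The part of these genes in the differences was not tested.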

How the data were processed

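The authors deposited 1 table of read counts, as whole numbers without normalization, for 61552 gene identifiers in 12 libraries. Reads were handled with HISAT2 2.2.1, featureCounts 2.0.5, Trimmomatic 1.4 (version as given), FastQC and the build GRCh38, per the submitters' processing notes, which state no roles. How featureCounts treated strand and multi-mapping reads, and with which annotation, is not given in the sources used here, so genes with near-identical copies (FTH1, tubulins, actins, histones) and overlapping antisense genes are uncertain. Library totals lay between 54047293 and 83481963 counted reads, and intervals on reads cover counting error only.

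Counts were fitted with edgeR 4.0.16 in R 4.3.3: filterByExpr by group (20304 genes), TMM scaling, 6 blocks of line and replicate number, and an ML210 coefficient per line (4 residual degrees of freedom, common dispersion 0.00846). Responses and their difference were tested with the robust quasi-likelihood test, two-sided; p was adjusted by Benjamini-Hochberg across the 20304 genes, and a call needed an adjusted p under 0.05. Each adjusted p in the text is from this fit unless another is named. SE and 95% intervals follow from the F statistic. CPM of single genes are edgeR's, from TMM-scaled totals, and log2 pair differences use a prior count of 2. Summed levels of marker and identity lists use library totals without TMM factors. These factors lay between 0.896 and 0.949 under the SK-N-AS label and between 1.06 and 1.09 under the SK-N-BE(2) label. The script was tested on simulated data drawn with the same blocks, which cannot show whether the pairing holds in the real libraries.

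The block comes from the labels, whose batch number equals the replicate number. Deviations of same-number control and ML210 libraries from their group means correlated at 0.357, 0.0677 and 0.121 under the SK-N-AS label and at 0.0957, 0.12 and 0.169 under the SK-N-BE(2) label. Under the SK-N-AS label, control 2 correlated with ML210 replicate 3 at 0.189, and control 3 with ML210 replicate 2 at 0.125. Both values lay above the same-number values of these replicates, so pairing of replicates 2 and 3 was not shown there. All other different-number values were negative under both labels.

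Named genes were GPX4 and MYCN, the 12 called genes each way with the largest difference and at least 1 CPM in each line, the 4 each way with less in 1 line, up to 4 called members of each list with the smallest p, up to 8 genes called in 1 line alone, and up to 2 members of lists with no call. Others are said to be chosen after their values were seen. Of the genes the rule gives, 2 are not reported here. The 37 lists hold 1110 genes, of which 1109 were matched. Members, lists, tests and rule were chosen with earlier results of these data known. Symbols came from a table of gene names for 61399 identifiers and from GENCODE 29 for the others that have one, 61544 in all, and gene coordinates from GENCODE 29 on GRCh38. Alternatives were no block, a block shared by both lines, DESeq2 1.42.0, limma 3.58.1 (voom), other scalings and filters, a non-robust fit, and leaving out each pair.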

Additional observations from a re-analysis of the deposited data

Results flagged for a closer look

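The differences of responses between the line labels passed the edgeR test of the difference itself for each gene below, and each value is on the log2 scale, above 0 where the response was higher under the SK-N-BE(2) label. Above 0 they were 0.684 for TXNRD1, 0.838 for FTH1, 0.452 for MSRB1, 0.643 for SLC2A1, 0.493 for CSF1 and 0.719 for UAP1L1. For genes of actin, tubulin, neurofilament and related proteins they were 1.843 for TUBA4A, 0.443 for TUBB6, 0.544 for TUBB2A, 1.032 for DYNC1I1, 0.618 for ACTB, 0.596 for TPM1, 0.447 for TPM4, 0.928 for PALLD, 0.396 for WDR1, 0.528 for BAIAP2, 0.495 for RHOC, 0.598 for NEFL and 1.189 for NEFM.

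The other genes above 0 were DGKG at 1.141, DUSP8 at 1.007, PRSS23 at 0.886, ST6GALNAC5 at 0.921, GTPBP6 at 0.405, BRI3 at 0.625 and KCNK3 at 1.093. Those with few reads under the SK-N-BE(2) label were PPP2R2C at 3.908, QPCT at 3.584, UBE2QL1 at 1.417 and DIRAS1 at 1.22.

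Below 0 the differences were -0.78 for GNG2, -0.704 for RGS16, -0.757 for PTGER2, -0.768 for RET, -0.818 for CHGB, -0.886 for NMNAT2 and -0.483 for GCH1. They were -1.021 for MMP28, -0.828 for PCDH17, -0.828 for LINC01116, -0.778 for PAK1, -0.767 for CPED1, -0.752 for SMIM3, -0.499 for REC8, -0.443 for NR1D2 and -0.438 for SMAD3. GNG2 kept its call with no replicate block, and the other genes listed here did not.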

How the results depend on the processing

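Genes called above and below 0 numbered 48 and 37 with the replicate block in each line. They numbered 0 and 1 with no replicate block and 0 and 1 with a block shared by both lines, and the called gene was GNG2 in each. DESeq2 called 201 and 176, voom 76 above 0, median-of-ratios size factors 23 below 0, library totals 89 below 0, a non-robust fit 29 and 17, and the filter of at least 1 read 382 and 412. Fits without 1 pair called 0 to 241 above and 1 to 319 below 0. Genes called under the SK-N-AS label numbered 38, and 6 with no replicate block, 8 with the shared block, 175 with DESeq2, 125 with voom, 60 with library totals, 454 with the filter of at least 1 read, and 11 to 119 without 1 pair. Those under the SK-N-BE(2) label numbered 1386, and 279, 455 and 2085 with no block, the shared block and the filter of at least 1 read, and 291 to 1864 without 1 pair. For the fits without a pair, fewer samples and other filtered genes are part of their construction; for the other changes in number the cause was not tested.

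All 85 called genes kept their direction in every alternative that tested them (1271 comparisons), and 666 of these kept the call. The alternatives reuse the libraries from which these genes were chosen, so a kept direction is no independent check. Beside GNG2, the gene with the most calls kept was PPP2R2C, in 12 of 15 alternatives, and the median over the called genes was 8. The differences of GPX4 and MYCN, neither of them called, turned in sign: GPX4 to -0.008 with library totals and, without 1 pair, over a range from -0.067 to 0.069, and MYCN, near 0 reads under the SK-N-BE(2) label, over a range from -1.05 to 0.285 without 1 pair, at 0.044 without replicate 2 of that label. Among blood cell markers, PTPRC ranged from -1.15 to 0.07 and CD14 from -0.1 to 1.0 over the alternatives. Counts limit the genes near 0 under the SK-N-BE(2) label, where QPCT had 2 reads over 3 controls.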
